A study of Mus musculus with 4 samples.

Results

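Heme synthesis was read through 9 genes, the enzymes *Alas1*, *Alas2*, *Alad*, *Uros*, *Urod*, *Cpox*, *Ppox* and *Fech* in pathway order and the mitochondrial glycine carrier gene *Slc25a38*. They were chosen by their gene symbol in the annotation of the array, and each had 1 probe set that carries its symbol alone, among 19938 genes so measured. Expression was measured on 4 one-color arrays, 1 each for granulocyte-macrophage progenitors (GMPs) and multipotent progenitors (MPPs) from WT, *Bcl11a*(+/+), and from *Bcl11a*-/- donors. All cells were donor-derived and came from the bone marrow (BM) of lethally irradiated B6.SJL mice that had received WT or *Bcl11a*-/- fetal liver cells, and per the labels they were sorted 4 weeks later. *Bcl11a*-/- cells lack the first exon of *Bcl11a* in every donor cell, and MPPs were taken as LSK cells without CD150. Cells were pooled by donor genotype, GMPs and MPPs of a genotype were taken from shared BM, as the study's text states, and the sources used here do not say how many mice made up a pool. Each condition is therefore 1 array of 1 pool. The 2 populations of a genotype are not independent samples of it, so differences between genotypes were not tested and carry no p-value.

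Heme is an iron-containing porphyrin that hemoglobin, the cytochromes and the neutrophil enzyme myeloperoxidase all carry. Its synthesis starts in mitochondria, where an ALA synthase joins glycine to succinyl-CoA, goes on in the cytosol, and ends in mitochondria with the insertion of iron. *Alas1* encodes the ALA synthase of most cells, while *Alas2* is the X-linked erythroid form, a target of the factor GATA1 that is induced as red cells mature. Red cell precursors make most of the heme of the body, and the other progenitors of the BM make it for their own enzymes.

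The array values are log2 signals, and a log2 difference of 1 is a 2-fold difference, the threshold of the study. Median log2 signal over 28853 probe sets lay between 5.50 and 5.70 on the 4 arrays. The SD was between 2.28 and 2.30 on the GMP arrays and 2.10 on the *Bcl11a*-/- MPP array. *Bcl11a* itself was 1.78-fold lower in *Bcl11a*-/- GMPs and 2.39-fold lower in *Bcl11a*-/- MPPs. The deletion covers 1 exon, so the probe set may still read the rest of the transcript. All 8 GMP markers of the marker list had a higher value in GMPs than in MPPs of either genotype. Of 5 measured markers of stem and multipotent cells, 4 in WT and 5 in *Bcl11a*-/- cells had a higher value in MPPs. Each probe set has its own response, so levels of different genes are not ranked, and signals summed over a list are compared only between arrays.

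*Alas1* had the widest range of the 9 genes. GMPs had a log2 signal of 10.68 (WT) and 10.74 (*Bcl11a*-/-), and MPPs of 8.43 (WT) and 7.83 (*Bcl11a*-/-). Both GMP arrays lay above both MPP arrays, and the *Bcl11a*-/- arrays differed from WT by 0.05 in GMPs and −0.60 in MPPs on the log2 scale.

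*Alas2* ran the other way between the populations. GMPs had a log2 signal of 6.16 (WT) and 6.80 (*Bcl11a*-/-), and MPPs of 6.70 (WT) and 7.29 (*Bcl11a*-/-). WT GMPs were lowest, *Bcl11a*-/- MPPs were highest, and the array of *Bcl11a*-/- GMPs and that of WT MPPs were close together. The *Bcl11a*-/- array was higher by 0.65 in GMPs and by 0.59 in MPPs on the log2 scale, 1.57-fold and 1.51-fold.

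*Slc25a38*, whose product brings glycine into mitochondria for the first step, had log2 signals of 6.73 (WT) and 7.03 (*Bcl11a*-/-) in GMPs and of 5.86 (WT) and 6.18 (*Bcl11a*-/-) in MPPs. The GMP arrays lay above the MPP arrays, as for *Alas1*, but in both populations the *Bcl11a*-/- array was above the WT array, by 0.30 in GMPs and 0.32 in MPPs.

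**Figure D1:**
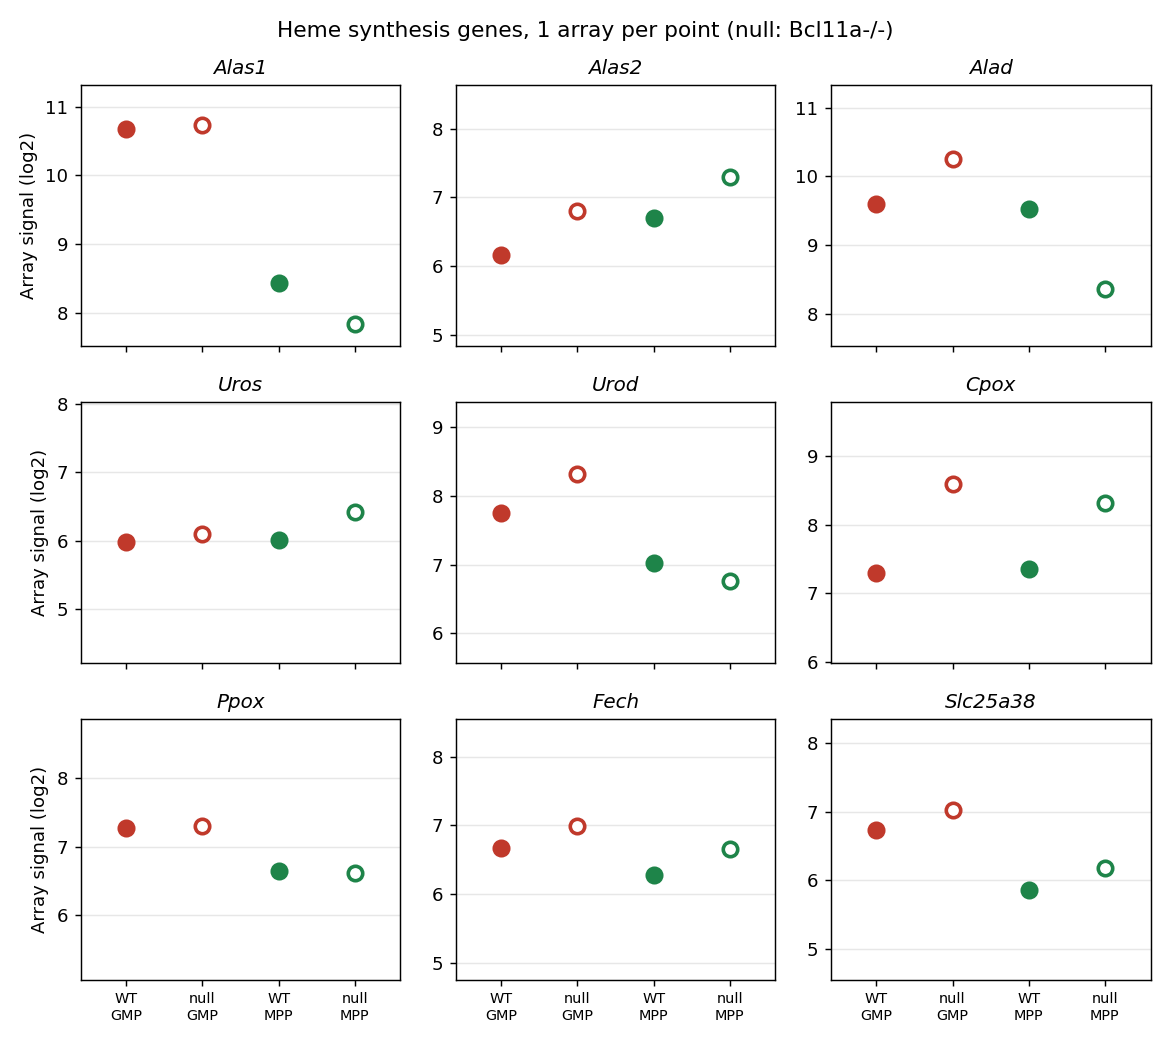
Array signal (log2) of the 9 heme synthesis genes, 1 array per point, with GMPs in red, MPPs in green, WT as filled and *Bcl11a*-/- (null) as open circles; each panel is centered on the mean of its gene and all panels span the same number of log2 units. *Alas1* lies at 10.68 in WT GMPs and at 7.83 in *Bcl11a*-/- MPPs, while *Uros* lies between 5.98 and 6.42 on all arrays.

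The 3 cytosolic enzymes did not share one pattern. *Alad* encodes ALA dehydratase, which joins ALA molecules into porphobilinogen. Its log2 signal in GMPs was 9.60 (WT) and 10.25 (*Bcl11a*-/-), and in MPPs 9.52 (WT) and 8.36 (*Bcl11a*-/-). The WT arrays were close together, the *Bcl11a*-/- GMP array was the highest and the *Bcl11a*-/- MPP array the lowest. Relative to WT, *Alad* was 1.56-fold higher in *Bcl11a*-/- GMPs and 2.24-fold lower in *Bcl11a*-/- MPPs.

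*Urod* encodes uroporphyrinogen decarboxylase, the last cytosolic enzyme of the route. Its log2 signal in GMPs was 7.76 (WT) and 8.33 (*Bcl11a*-/-), and in MPPs 7.03 (WT) and 6.76 (*Bcl11a*-/-). As for *Alad*, the *Bcl11a*-/- array was above WT in GMPs, by 0.57, and below WT in MPPs, at −0.26. *Uros*, the gene of uroporphyrinogen III synthase, had log2 signals of 5.98 and 6.09 in WT and *Bcl11a*-/- GMPs and of 6.01 and 6.42 in WT and *Bcl11a*-/- MPPs. It spanned 0.44 log2 units over the 4 arrays, the narrowest range of the 9 genes.

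*Cpox*, the gene of coproporphyrinogen oxidase, with which the route returns to mitochondria, had the largest difference between genotypes in GMPs. Its log2 signal in GMPs was 7.29 (WT) and 8.59 (*Bcl11a*-/-), and in MPPs 7.36 (WT) and 8.32 (*Bcl11a*-/-). Both *Bcl11a*-/- arrays lay above both WT arrays, by 1.30 in GMPs (2.46-fold) and 0.96 in MPPs (1.95-fold). The MPP difference was just within 2-fold, and it was over 2-fold after lowess centering or with the arrays quantile normalized anew, up to 1.09 on the log2 scale.

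The last 2 enzymes differed less. *Ppox* encodes protoporphyrinogen oxidase, and its log2 signal was 7.27 and 7.30 in WT and *Bcl11a*-/- GMPs and 6.64 and 6.62 in WT and *Bcl11a*-/- MPPs. *Fech* encodes ferrochelatase, which inserts the iron, and its log2 signal was 6.66 and 6.999 in GMPs and 6.28 and 6.66 in MPPs, in the same order. The genotypes of *Ppox* thus differed by 0.04 and −0.02 and those of *Fech* by 0.33 and 0.38, all within 1.5-fold.

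Of the 5 genes with a higher value on both *Bcl11a*-/- arrays, *Alas2* and *Cpox* had the largest differences in both populations. Their promoters are shown, beside that of *Urod*. *Urod* was 1.20-fold lower in *Bcl11a*-/- than in WT MPPs and 1.48-fold higher in *Bcl11a*-/- than in WT GMPs. *Alad* was lower in MPPs by more, 2.24-fold. The choice was made after the values were seen. Promoter sequences from RefSeq (GRCm38.p6), from 250 bases before to 50 bases after a start, were held for 8 of the 9 genes, in 11 windows, and *Fech* was not among them. The 250 bases before the start are printed 5′ to 3′ on the strand of the gene. Capitals mark matches on either strand to the GATA motifs AGATAA and TGATAA or to the CACCC box CCNCNCCC, a kind of site that the erythroid factor Klf1 binds. Neighbouring CACCC matches overlap and run together.
*Alas2*, chrX:150547167-150547416, plus strand: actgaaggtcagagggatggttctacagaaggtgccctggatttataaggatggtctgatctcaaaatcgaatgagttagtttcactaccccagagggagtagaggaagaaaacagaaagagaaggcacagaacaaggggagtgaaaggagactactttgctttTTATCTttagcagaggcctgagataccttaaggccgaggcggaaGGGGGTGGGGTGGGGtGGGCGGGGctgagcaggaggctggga
*Cpox*, chr16:58669958-58670207, plus strand: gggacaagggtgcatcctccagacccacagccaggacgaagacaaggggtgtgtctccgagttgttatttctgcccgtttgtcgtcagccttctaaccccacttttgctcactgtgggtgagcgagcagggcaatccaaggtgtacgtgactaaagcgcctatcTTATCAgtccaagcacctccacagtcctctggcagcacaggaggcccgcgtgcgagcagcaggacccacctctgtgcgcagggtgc
*Urod*, chr4:116994414-116994663, minus strand: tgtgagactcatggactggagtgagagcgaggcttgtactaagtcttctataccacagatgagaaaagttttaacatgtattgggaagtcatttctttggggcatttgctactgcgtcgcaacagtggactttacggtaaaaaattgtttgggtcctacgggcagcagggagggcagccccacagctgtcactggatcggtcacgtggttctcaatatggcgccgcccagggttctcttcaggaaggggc

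In *Alas2* a GATA match lay at −86 to −81 from the start, with 4 CACCC matches between −42 and −19. In *Cpox* 1 GATA match lay at −86 to −81 and another at 5 to 10 bases into the transcript, and a CACCC match followed at 20 to 27. *Urod* had no GATA match in its window and 1 CACCC match across the start, which runs past the printed end and is not in capitals. Of the other genes only *Uros*, also higher on both *Bcl11a*-/- arrays, had a GATA match, at 1 of its 2 starts, and *Slc25a38*, higher on both as well, had none. Each of the 8 genes had a CACCC match in a window, and 1 window of *Alad*, which was lower in *Bcl11a*-/- MPPs, held 4. Of 32851 promoter windows of all genes, 18.6% held a GATA match, 3.26% held at least 2 and 49.5% held a CACCC match. A match is a run of letters and is not evidence of binding, and none of these arrays measured binding.

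All 11 windows were also searched for the core of the motif of NRF1, a factor that drives nuclear genes for mitochondria, spelled GCGCANGCG. Only *Alas1* and *Uros* had a match, *Uros* at −46 to −38 from 1 of its 2 starts. Each of the 2 *Alas1* windows held 3 matches, 2 of which overlap, and the windows overlap so that these are the same bases. Of all windows, 6.25% held a match. The match from 2 to 10 bases after the second start, at −223 to −215 from the first, is in capitals in this 30-base stretch, shown because *Alas1* set the populations apart most.
*Alas1*, chr9:106247934-106247963, minus strand: cttcggcgcgCGCGTGCGCgcggcaggccg

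All 9 genes had a higher value in *Bcl11a*-/- than in WT GMPs, with log2 differences from 0.04 to 1.30. *Cpox* alone was higher by more than 2-fold and none was lower by more than 2-fold, where 0.361% of all genes were higher and 0.281% lower, 0.642% in all. The median of the 9 genes was 0.33 and that of all genes 0.01, with 51.9% of all genes above 0. In MPPs 5 of the 9 genes had a higher value in *Bcl11a*-/- cells and 4 a lower value. *Alad* alone was lower by more than 2-fold and none was higher by more than 2-fold, where 2.02% of all genes were lower and 0.908% higher, 2.92% in all. The median of the 9 genes was 0.32 in MPPs and that of all genes 0.05. The GMP and MPP comparisons share no array, but they rest on the same BM and are not independent.

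**Figure D2:**
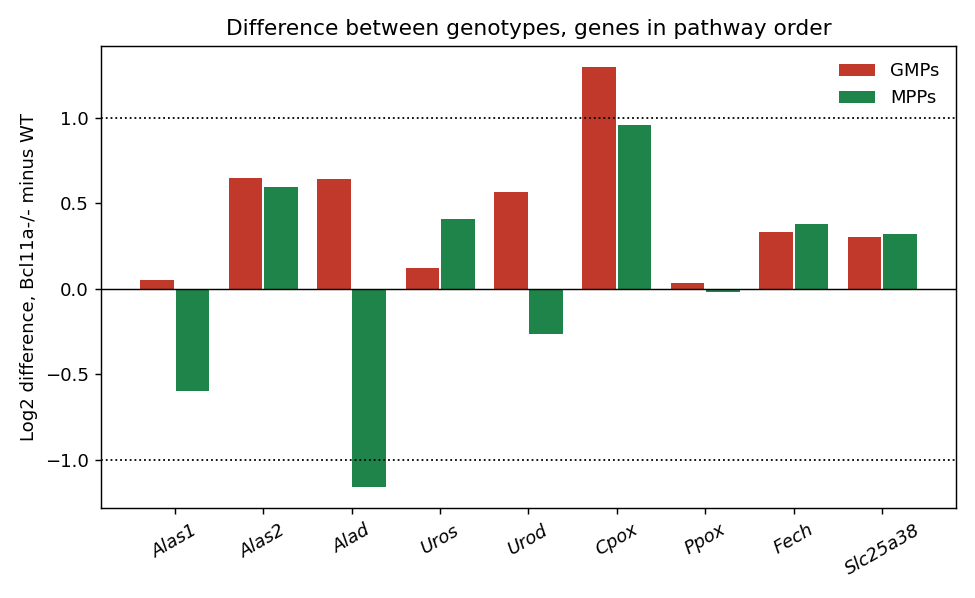
Log2 difference between *Bcl11a*-/- and WT arrays for each heme synthesis gene in GMPs (red) and MPPs (green), with dotted lines at a 2-fold difference and 1 array per condition. *Cpox* is at 1.30 and 0.96, while *Alad* is at 0.65 in GMPs and −1.16 in MPPs.

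In bulk samples, fewer cells of a type and less RNA per cell cannot be told apart, and markers of other cells differed beside these values. Of 10 measured erythroid markers all had a higher value in *Bcl11a*-/- than in WT GMPs. By more than 2-fold 7 of them were higher, where 0.361% of all genes were. The median of the 10 was 1.47. Their summed signal on the log2 scale was 10.97 (WT) and 12.85 (*Bcl11a*-/-) in GMPs and 12.54 (WT) and 12.87 (*Bcl11a*-/-) in MPPs. In WT GMPs *Rhag*, a gene of the red cell membrane, had a log2 signal of 5.21, and it had 7.36 in *Bcl11a*-/- GMPs. *Car1*, a carbonic anhydrase gene of red cell precursors, had 10.38 in WT and 12.46 in *Bcl11a*-/- GMPs. The sum is taken before the log, and *Car1* made up most of it on each array. The median log2 signal of the 10 was 6.40 (WT) and 7.52 (*Bcl11a*-/-) in GMPs and 7.15 (WT) and 7.51 (*Bcl11a*-/-) in MPPs. In MPPs none of the 10 was over 2-fold, and their median was 0.39. Their part in the heme values was not tested.

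Of 8 GMP markers, 6 had a lower value in *Bcl11a*-/- than in WT MPPs. By more than 2-fold 4 were lower, among them *Ms4a3* (6.40-fold) and *Prtn3* (6.28-fold), where 2.02% of all genes were. The summed log2 signal of the 8 markers was 13.4 in WT and 12.1 in *Bcl11a*-/- MPPs, and 15.0 and 14.9 in WT and *Bcl11a*-/- GMPs. *Alas1* and *Alad* were lower beside them in *Bcl11a*-/- MPPs, and the part of these markers in that was not tested. *Alas1* and *Alad* were also the only 2 of the 9 genes with a mean log2 signal of at least 8. Among 3052 protein-coding genes above that level, the length of the gene in the genome and the difference between genotypes had a Spearman correlation of 0.28 in MPPs and −0.0020 in GMPs. Genes are not independent replicates, so this is a description. *Alas1* spans 14.5 kb and *Alad* 14.1 kb, where the median of those genes was 19.7 kb, and the part of gene length in their values was not tested.

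The difference between populations could be tested, since each genotype gave 1 pair of arrays. With genotype as a block, limma called *Alas1* lower in MPPs, at a log2 difference of −2.58 ± 0.24 (SE, 2 pairs), 5.99-fold, with a Benjamini-Hochberg adjusted p of 0.0280. The value was −2.26 in the WT pair and −2.91 in the *Bcl11a*-/- pair. The adjusted p ran from 0.00578 to 0.341 over the other limma settings, and only a floor at 5, which left limma with no call among all genes, took it past 0.05. None of the other 8 genes passed, where limma called 2.35% of all genes lower and 0.908% higher in MPPs. The spread in this test starts from the difference between the pairs, with 1 residual degree of freedom. limma moderates it with a spread shared over genes, at a median of 4.78 prior and 5.78 total degrees of freedom. The SEs, intervals and p-values are thus not set by the 2 pairs of a gene alone. Each pair is 1 pool of BM of another genotype, so the p-values cover only the spread between these arrays.

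*Slc25a38* had a log2 difference of −0.86 ± 0.16 (SE, 2 pairs, adjusted p = 0.0530 by limma) and nearly the same value in each pair, −0.87 in WT and −0.85 in *Bcl11a*-/-. For *Urod* it was −1.15 ± 0.24 (adjusted p = 0.0663 by limma) and for *Ppox* −0.66 ± 0.16 (adjusted p = 0.0901 by limma). *Alas2* had the highest difference of the 9 genes, at 0.51 ± 0.16 (95% interval 0.11 to 0.92, adjusted p = 0.134 by limma). For *Alad* the pairs disagreed, −0.08 in WT and −1.89 in *Bcl11a*-/-, and its interval of −2.03 to 0.06 was the widest. The interval was −0.76 to 0.04 for *Fech*, −0.56 to 0.36 for *Cpox* and −0.24 to 0.59 for *Uros*, each of which includes 0.

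**Figure D3:**
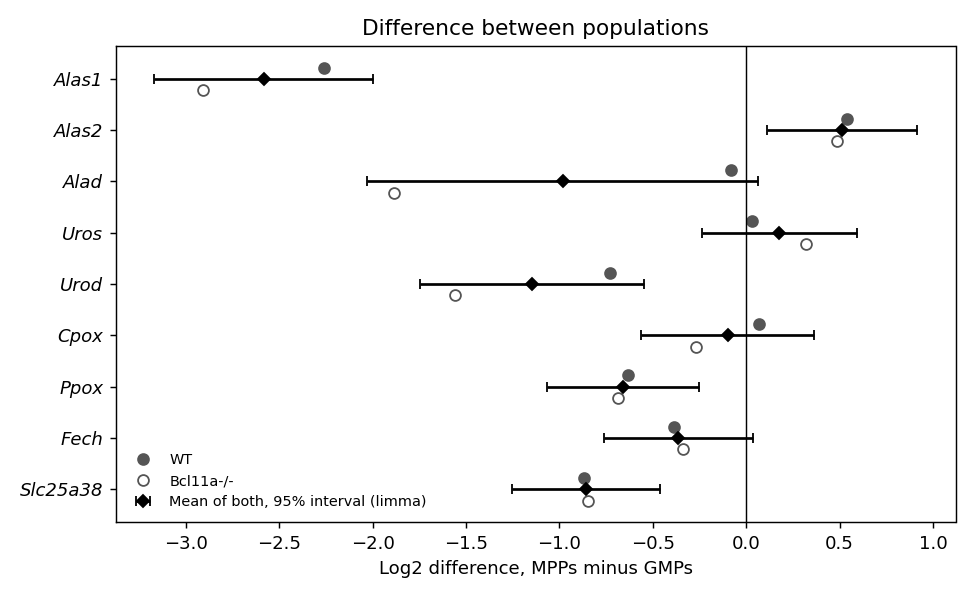
Log2 difference between MPPs and GMPs for each heme synthesis gene in the WT pair (filled circles), in the *Bcl11a*-/- pair (open circles) and as the mean of both with its 95% interval from limma (diamonds). *Alas1* is at −2.58 and *Alas2* at 0.51, and the pairs of *Alad* lie far apart.

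By the 2-fold threshold, *Alas1* alone of the 9 genes was lower in WT MPPs than in WT GMPs (4.78-fold) and none was higher, where 2.8% of all genes were lower and 1.33% higher, 4.14% in all. In *Bcl11a*-/- cells *Alas1* (7.51-fold), *Alad* (3.70-fold) and *Urod* (2.95-fold) were lower in MPPs and none was higher, where 5.82% of all genes were lower and 2.36% higher, 8.18% in all. The median of the 9 genes was −0.39 in WT and −0.68 in *Bcl11a*-/- cells, beside 0.06 and 0.10 over all genes. These values share their arrays with the comparisons of genotypes.

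Genes that feed or surround the route were read through lists. In GMPs none of 10 genes of iron-sulfur cluster assembly, 13 of iron uptake and storage, 11 of heme and porphyrin transport and 12 of glycine and succinyl-CoA supply was over 2-fold between genotypes. The medians of these lists lay between −0.00093 and 0.10, where the median of the 9 heme genes was 0.33. *Glrx5*, a glutaredoxin of iron-sulfur assembly, was the highest of that list at 0.59, and *Tfrc*, the transferrin receptor, was the highest of the iron list at 0.33. Of 4 genes of heme degradation, *Blvrb*, a biliverdin reductase that is abundant in red cells, was 2.21-fold higher in *Bcl11a*-/- GMPs, and *Hmox1*, the inducible heme oxygenase, was at −0.04.

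The list of erythroid transcription factors holds *Bcl11a* itself and shares *Gata1* and *Klf1* with the erythroid markers. Its median was 0.45 in GMPs, beside 0.30 in MPPs. Of the 9 measured in GMPs, 3 were over 2-fold higher without Bcl11a, where 0.361% of all genes were. None was lower by more than 2-fold, with *Bcl11a* itself at −0.83. *Klf1* was 3.23-fold higher, *Gfi1b* 2.51-fold, and *Gata1* had log2 signals of 6.44 in WT and 7.47 in *Bcl11a*-/- GMPs. Of 9 genes that sense heme or control ALA synthase, none was over 2-fold between genotypes in either population. The lowest of them in MPPs was *Clpp*, at −0.95 (1.93-fold lower), just within 2-fold. *Clpx*, whose product unfolds ALA synthase for its activation and turnover, was at −0.35 in GMPs and −0.27 in MPPs, and *Bach1*, a heme-binding repressor, at 0.13 and 0.58.

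In MPPs the ferritin genes, whose products store iron, had the largest differences of these lists. *Ftl1* was 4.63-fold lower and *Fth1* 3.28-fold lower in *Bcl11a*-/- than in WT MPPs, the only 2 of 13 iron genes over 2-fold. Of all genes, 2.02% were lower by more than 2-fold. *Tmem14c*, a mitochondrial porphyrin carrier gene, was 2.38-fold lower, *Hspa9*, a mitochondrial chaperone of iron-sulfur assembly, was 2.11-fold lower, and *Phgdh*, the first enzyme of serine synthesis, was just past 2-fold lower. Of the 12 genes of glycine and succinyl-CoA supply, 10 had a lower value in *Bcl11a*-/- MPPs, with a median of −0.29. No gene of these 4 lists or of heme degradation was higher by more than 2-fold.

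**Figure D4:**
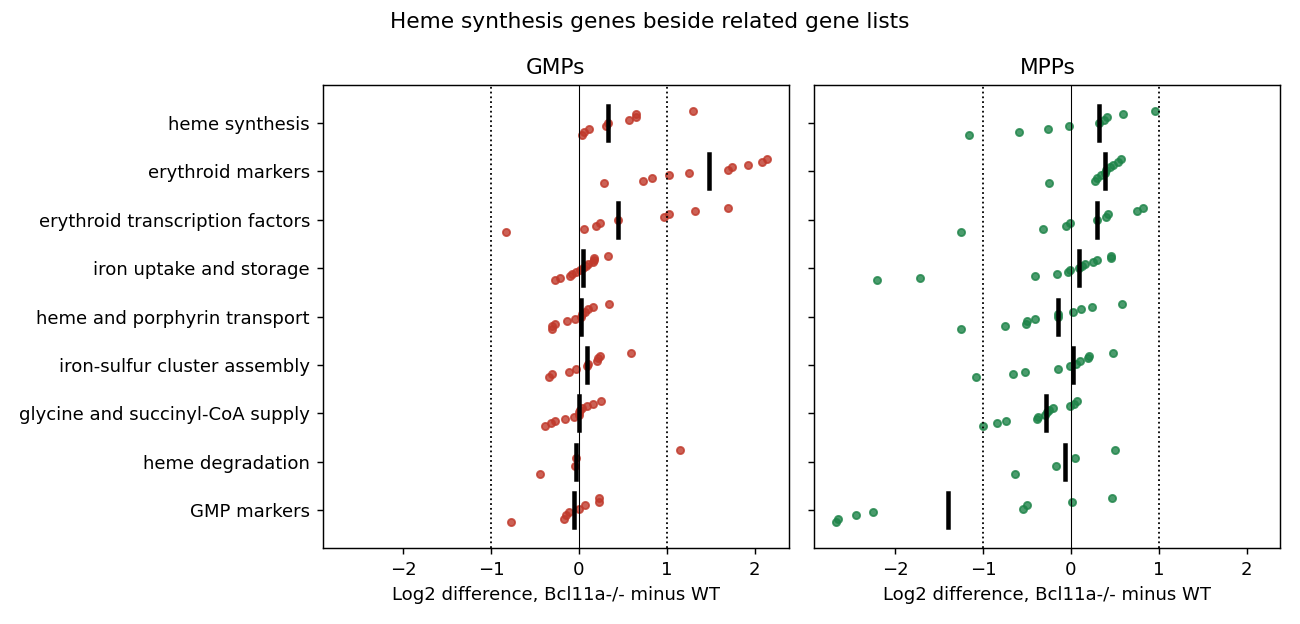
Log2 difference between *Bcl11a*-/- and WT arrays for each measured gene of heme synthesis and of 8 related lists in GMPs (left) and MPPs (right); points are genes, black bars are medians and the dotted lines lie at 2-fold. The median is 0.33 for heme synthesis and 1.47 for erythroid markers in GMPs, and −1.40 for GMP markers in MPPs; the lowest erythroid transcription factor in both panels is the deleted gene *Bcl11a*.

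Between the populations, limma called 4 of 11 genes of heme and porphyrin transport lower in MPPs and none higher. They were *Tspo*, a protein of the outer mitochondrial membrane, at −3.03 ± 0.23 (SE, adjusted p = 0.0280), *Tmem14c*, at −2.85 ± 0.35 (adjusted p = 0.0324), *Hebp1*, a heme-binding protein gene, at −1.42 ± 0.19 (adjusted p = 0.0326), and *Slc48a1*, a heme transporter gene, at −1.15 ± 0.19 (adjusted p = 0.0422). Of 13 iron genes 3 were called lower, *Ftl1* (−3.42), *Slc40a1* (−1.46), the iron exporter ferroportin, and *Pcbp1* (−1.19), an iron chaperone. Of the genes of glycine and succinyl-CoA supply *Phgdh* (−1.41) and *Suclg1* (−1.53), a subunit of succinyl-CoA ligase, were called lower, as was the cysteine desulfurase gene *Nfs1* (−1.13) of iron-sulfur assembly. None of the 4 heme degradation genes, 9 heme-sensing genes, 10 erythroid markers and 9 erythroid transcription factors passed in this test, where 3.26% of all genes passed in either direction. For the erythroid genes the test averages 2 pairs that disagreed. All 10 markers had a higher value in WT MPPs than in WT GMPs, with a median of 1.13. Of these, 6 were higher by more than 2-fold, where 1.33% of all genes were. In the *Bcl11a*-/- pair 3 were higher and 7 lower in MPPs, with a median of −0.015. Of the erythroid factors, 3 were over 2-fold higher in WT MPPs and none in *Bcl11a*-/- MPPs. At an unadjusted p below 0.05, 4901 of all genes and 5 of the 9 heme genes passed in limma.

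For the 6 heme genes that spanned more than 1 log2 unit, the genes with the most similar pattern were found by the distance between values centered on the mean of each gene over the 4 arrays. The nearest gene to *Cpox* was *Gata2*, a transcription factor of stem and mast cells, at a distance of 0.17 log2 units. *Gata2* had log2 signals of 7.68 (WT) and 8.88 (*Bcl11a*-/-) in GMPs and of 7.56 (WT) and 8.49 (*Bcl11a*-/-) in MPPs, so that for *Gata2*, as for *Cpox*, both *Bcl11a*-/- arrays lay above both WT arrays. *Rbpms2* (0.29) and *Apoa1* (0.32) came next.

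The nearest genes to *Alas2* were *Lcn12* (0.11), *Zfp169* (0.11) and *Pbx3* (0.12), and those to *Alas1* were *BC018473* (0.20), *Ufc1* (0.32) and *Nme2* (0.33). *Alad* had *Ssna1* (0.17), *Cuedc2* (0.20) and *Mphosph6* (0.21) nearest, *Urod* had *BC031181* (0.10), *Eri2* (0.11) and *Bud23* (0.14), and *Slc25a38* had *Tnfrsf21* (0.07), *Tap1* (0.07) and *Scly* (0.09). No heme gene was among the 3 nearest genes of another. No test goes with these distances.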

How the data were processed

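Progenitors were sorted from chimeric BM and pooled by donor genotype, and RNA was amplified, labeled with biotin and hybridized, 1 array per condition. The authors deposited log2 signals, 1 for each probe set, which RMA and quantile normalization in ArrayStar had given (RMA is also named in the submitters' processing notes; versions are not given in the sources used here). Every measured column was mapped to its sample. Scanner files were not used here, and quantile normalization can hide a change in total mRNA.

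Of 30177 rows, 1324 unannotated rows with the lowest numbers were set aside as controls. In the annotation of the platform 21789 probe sets have 1 gene symbol, 1621 several, and 5443 are unnamed here. All 9 member symbols matched RefSeq by Entrez identifier. Probe sets of 1 symbol were averaged by gene. Genotypes were compared by log2 differences with no test. Populations were compared with limma 3.58.1 in R 4.3.3 (genotype as block, eBayes with a trend, Benjamini-Hochberg over 19938 genes, threshold 0.05), tested on simulated data. Arrays give no count of molecules, and their number limits the precision.

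The 9 genes and the 13 lists of related genes and markers were chosen with earlier results of these data known. Genes named are the 9 genes, up to 2 genes of each list in each direction and comparison with a log2 signal of at least 6, the 3 nearest genes of each member that spans over 1 log2 unit, and *Bcl11a*. Alternatives were a floor at 5, a filter at 6, centering on the median or on a lowess curve (span 0.3), quantile normalization anew, other probe set rules, thresholds of 1.5-fold and 3-fold, and other limma settings.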

Additional observations from a re-analysis of the deposited data

Results flagged for a closer look

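For 4 of the 9 genes the *Bcl11a*-/- array was above WT in one population and below it in the other, and with 1 array per condition the difference between the populations was not tested. *Alad* was at 0.65 in GMPs and −1.16 in MPPs on the log2 scale, and *Urod* was at 0.57 and −0.26. *Alas1* was at 0.0542 and −0.60. *Ppox* was at 0.0357 and −0.0189, and its value in MPPs was 0.0047 with the arrays quantile normalized anew. *Cpox* was flagged the other way round, since MPPs minus GMPs was 0.0689 in WT and −0.27 in *Bcl11a*-/- cells, and this difference was not tested either.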

How the results depend on the processing

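Every median of the 9 genes between genotypes kept its sign, from 0.32 to 0.34 in GMPs and from 0.27 to 0.32 in MPPs over 7 alternatives each. *Cpox* in GMPs stayed between 1.29 and 1.33 and *Alad* in MPPs between −1.21 and −1.07. After lowess centering, and with the arrays quantile normalized anew, 1 gene (*Cpox*) in place of 0 passed 2-fold upward in *Bcl11a*-/- MPPs. Of all genes 0.767% and 1.1% did so under these settings. At 1.5-fold 3 genes were higher in *Bcl11a*-/- than in WT GMPs, where 2.02% of all genes were. In *Bcl11a*-/- MPPs 2 were higher and 2 lower than in WT MPPs, where 5.18% and 6.86% of all genes were. Against GMPs, 4 were lower in WT MPPs and 5 in *Bcl11a*-/- MPPs, where 7.97% and 11.8% of all genes were. At 3-fold 0 genes differed between genotypes in GMPs or MPPs. Of all genes, 0.0903% were higher and 0.0552% lower at 3-fold in GMPs, and 0.125% and 0.481% in MPPs. In limma the number of genes lower in MPPs was 1, 2 with the arrays quantile normalized anew (*Slc25a38* added), 4 over genes with a log2 signal of at least 6 on any array (*Slc25a38*, *Urod* and *Ppox* added, 10152 genes tested) and 0 with a floor at 5. The adjusted p of *Alas1* ran from 0.00578 to 0.341 over the limma alternatives, the highest with the floor, where no gene of all was called (2684 at an unadjusted p below 0.05). By construction the floor leaves the 5931 genes at 5 on every array with no spread. Of all genes limma called 650 (3.26%), 428 (2.15%) without the genotype block and 931 (4.67%) with the arrays quantile normalized anew. Over the genes with a signal of at least 6 it called 1560 (15.4%). Leaving out 1 pair of arrays left no residual degree of freedom, so the median of the 9 genes between populations, −0.66, is then a value with no test, −0.68 without the WT pair and −0.39 without the *Bcl11a*-/- pair. The limma test paired the populations by genotype, and without that block it called 1 of the 9 genes, as with it. No pairing by replicate number could be tried, since the labels give none.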

Other observations

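Markers of other lineages had these values. Of 5 measured megakaryocyte markers, *Pf4*, platelet factor 4, was 2.29-fold higher in *Bcl11a*-/- than in WT MPPs, and the other 4 were within 2-fold, with medians of 0.54 in MPPs and 0.19 in GMPs. Of 5 mast cell and basophil markers, *Gata2* was 2.29-fold higher in *Bcl11a*-/- GMPs, while *Cpa3*, the mast cell carboxypeptidase gene, was at 0.37 and *Mcpt8*, a basophil protease gene, at −0.69. All 5 B lineage markers were over 2-fold lower without Bcl11a in MPPs (median −3.83), where 2.02% of all genes were. In GMPs 3 of them were, where 0.281% of all genes were, and the median of −1.16 is the value of *Ebf1*. *Ebf1* (5.04 in WT and 3.88 in *Bcl11a*-/- GMPs) and *Cd79a* (5.59 and 3.39) are 2 of these 3. Their *Bcl11a*-/- GMP signals lay under the floor of 5. Of 5 stem and multipotent cell markers none was over 2-fold between genotypes in either population, and limma called *Meis1* higher in MPPs than in GMPs, at 1.41 ± 0.17 (SE, 2 pairs, adjusted p = 0.0319).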
